A study of Mus musculus with 32 samples.

Results

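The nuclear-encoded subunits of respiratory complexes II to V, together with cytochrome c, were followed in messenger RNA from mouse cortex. Genes were chosen by name (Sdha to Sdhd, Uqcr genes, Cyc1, Cycs, Cox4 to Cox8 genes and Atp5 genes), and 45 of the 49 matching rows, out of 24062 genes measured, had a mean of at least 1 count per 1000000 counts in genes (CPM) over the 32 libraries. They comprised 4 genes of complex II, 10 of complex III with cytochrome c, 14 of complex IV and 17 of complex V. The genes below the limit were Cox4i2, Cox7b2, Cox8b and Cox8c, with mean levels of 0.243, 0.252, 0.195 and 0.0239 CPM. Atp5s and Atp5sl, which RefSeq now lists as Dmac2l and Dmac2, carry the Atp5 name without being core subunits and were kept by the rule. The subunits encoded by mitochondrial DNA were not analysed here.

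All libraries came from adult male S100a10 bacTRAP mice (line Tg(S100a10-EGFP/Rpl10a)ES691Htz), which carry an EGFP-tagged ribosomal protein L10a under S100a10 regulatory elements, in a single founder line. Sh + Flx anxious mice were single housed after weaning, drank fluoxetine (0.167 g/L for 21 days) and showed anxiety-like behavior after treatment. Sh + Flx mice had the same housing and drug and normal behavior. Sh mice were single housed with vehicle, and Gh mice were group housed with vehicle. Each library was a pool of cortices from 3 mice, with hippocampi and striata removed. TRAP libraries hold RNA bound to the tagged ribosomes, and input libraries hold RNA of the whole cortical lysate, with 4 libraries of each kind per group. In both fractions, a lower level can reflect fewer cells of a type or less RNA per cell, which cannot be told apart. Anxious mice were sorted by behavior after treatment, so Sh + Flx anxious and Sh + Flx differ by outcome and not by an assigned treatment.

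Complex II (succinate dehydrogenase) feeds electrons from the citric acid cycle to ubiquinone, and complex III passes them from ubiquinol to cytochrome c. Cytochrome c carries them to complex IV, cytochrome c oxidase, which reduces oxygen, while complexes III and IV pump protons. Complex V, the ATP synthase, uses the proton gradient to make ATP. Cytochrome c also takes part in apoptosis when it leaves mitochondria. Neurons depend heavily on this chain to pay for ion pumping and synaptic transmission, and several complex IV subunits have isoforms best known from muscle or testis.

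Sequences just upstream of the start are shown for Cycs, Uqcrfs1, Cox5b and Atp5g1, because these 4 genes were called higher in Sh + Flx than in Sh TRAP mRNA with and without 2 outlying Sh libraries described below. The sequences are from RefSeq (GRCm38.p6, the build behind mm10), 180 bases each, on the gene's strand and 5′ to 3′, and capitals mark the motifs that were searched for.
Cycs, chr6:50566570-50566749, minus strand: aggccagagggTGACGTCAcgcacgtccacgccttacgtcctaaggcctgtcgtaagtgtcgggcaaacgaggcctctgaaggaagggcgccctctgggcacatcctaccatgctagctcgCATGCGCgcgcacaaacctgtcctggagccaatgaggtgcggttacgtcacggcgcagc
Uqcrfs1, chr13:30545317-30545496, minus strand: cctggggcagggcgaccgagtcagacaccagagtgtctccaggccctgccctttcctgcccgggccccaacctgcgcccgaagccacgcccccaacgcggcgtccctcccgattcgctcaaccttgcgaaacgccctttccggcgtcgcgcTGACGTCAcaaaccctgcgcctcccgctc
Cox5b, chr1:36691307-36691486, plus strand: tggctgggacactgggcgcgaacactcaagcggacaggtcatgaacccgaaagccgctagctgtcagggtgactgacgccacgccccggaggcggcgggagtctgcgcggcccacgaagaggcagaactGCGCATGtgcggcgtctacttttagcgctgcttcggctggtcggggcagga
Atp5g1, chr11:96075632-96075811, minus strand: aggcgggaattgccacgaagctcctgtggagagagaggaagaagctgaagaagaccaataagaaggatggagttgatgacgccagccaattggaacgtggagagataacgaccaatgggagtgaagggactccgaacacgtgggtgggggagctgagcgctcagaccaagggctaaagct
The start used for Atp5g1 lies inside the gene's annotated span, so part of that stretch can be transcribed from another start. Motifs were searched on both strands, in windows reaching from 250 bases before to 50 bases after the start, and 36 of the 45 members had a window.

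An NRF1 motif (GCGCATG), named for a factor known to control respiratory genes, was present in 9 of 36 members (25%) and in 4.41% of 27025 genes with a window. It stood 59 bases before the start in Cycs and 51 bases before it in Cox5b. An ETS motif (CCGGAAG) was present in 12 members (33.3%), against 9.93% of all genes, and in none of the 4 sequences shown. A YY1 motif (AAGATGGC) was present in 4 members (11.1%), against 3.19% of all genes. The cyclic AMP response element (TGACGTCA), a letter string chosen after the sequences had been seen, was present in Cycs (169 bases before the start) and Uqcrfs1 (29 bases before the start), which is 5.56% of members, against 2.03% of all genes. No motif was found in the sequence shown for Atp5g1. These matches are descriptions of letters and not of bound sites.

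The libraries held between 9776244 and 64788703 counts in genes in TRAP, and between 19265435 and 34515281 in input. S100a10, the gene that drives the transgene, ranged over 41.5 to 73.0 CPM in 14 TRAP libraries and 5.45 to 10.3 CPM in input. Sh TRAP replicates 2 and 3 stood apart, with 20.4 and 11.2 CPM of S100a10. In these 2 libraries the 45 members made up 0.466% and 0.357% of counts, while the other 14 had 0.652% to 0.823% and input libraries had 0.431% to 0.537%. The nuclear RNA Malat1 reached 25397 and 40707 CPM there, while the remaining TRAP libraries had 3106 to 8117 CPM and input had 25765 to 45584 CPM. Counts of called genes that rest on Sh TRAP are therefore given with and without them, and their share in the results was otherwise not tested. Gh TRAP replicates 2 and 3 were nearly alike within sampling noise (mean chi-square 1.13, 11 of 14157 genes different) and were summed and counted as 1 library, so Gh TRAP has n = 3.

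Levels within the chain were compared per kilobase of exon. Atp5b, the catalytic beta subunit of complex V, was the highest member, with 735 CPM per kb in Gh TRAP and 645 CPM per kb in Gh input. Atp5sl was the lowest of the Atp5 genes (3.44 and 4.11 CPM per kb). In complex IV, Cox6c was highest in Gh TRAP (349 CPM per kb), Cox7c was highest in Gh input (285 CPM per kb), and the lowest were Cox6a2 in TRAP (3.02) and Cox6b2 in input (0.842 CPM per kb). In complex III with cytochrome c, Uqcrh, the hinge protein, was highest (226 in TRAP and 153 in input) and Uqcrq was lowest (10.9 CPM per kb in both). The exon length used for Uqcrq, joined over its transcripts, was 1525 nt, against 546 nt for Uqcrh. Uqcrq also overlaps Gdf9 on the other strand, so its rank depends on that length and on shared reads. In complex II, the flavoprotein subunit Sdha had 122 CPM per kb in TRAP and 133 in input, while the iron-sulfur subunit Sdhb had 37.1 and 36.0 CPM per kb. Of the 3 genes that encode the same mature c subunit of complex V, Atp5g3 had 365 CPM per kb in Gh TRAP, Atp5g1 had 43.2 and Atp5g2 had 25.6.

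The first comparison asked which members were enriched on tagged ribosomes over the whole cortex. In Gh mice, 11 of the 45 members were higher in TRAP than in input, in a comparison that called 20.3% of 17015 genes higher. Genes were called by an edgeR quasi-likelihood test at a Benjamini-Hochberg adjusted p under 0.05, as in all comparisons. The count of members is near that share. No member was called lower, and the share of all genes called lower is not given here. The median log2 fold change of the members was 0.24, against -0.06 for all genes. The members called were Sdhc of complex II, Uqcrb and Uqcrh of complex III, Cox5b, Cox6b2, Cox6c and Cox7a1 of complex IV, and Atp5g3, Atp5j, Atp5j2 and Atp5l of complex V.

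Cox6b2, an isoform of subunit VIb best known from testis, was enriched the most. It had 12.1, 7.74 and 8.96 CPM in Gh TRAP libraries, against 0.265, 0.212, 0.434 and 1.04 CPM in Gh input libraries. The log2 fold change was 4.12 (SE 0.59, adjusted p = 9.4e-07), on input counts of only 7 to 53 reads per library. In Sh TRAP it had 10.4, 6.89, 0.643 and 9.40 CPM, so replicate 3 fell to the input level while the others did not. Cox7a1, an isoform of subunit VIIa best known from heart and skeletal muscle, had 2.63, 3.02 and 2.10 CPM in Gh TRAP, against 0.559, 0.516, 0.750 and 0.371 CPM in Gh input (log2 fold change 2.04, SE 0.43, adjusted p = 0.000282). The muscle marker genes fixed as a list (Ckm, Myh1, Myh4, Tnnt3, Tnni2, Actn3, Myh6) summed to 3.17 to 7.40 CPM in Gh TRAP and 3.75 to 6.17 CPM in Gh input, with 1 of 7 called higher in TRAP. Cox6a2, the muscle isoform of subunit VIa, was not called (log2 fold change -0.65, SE 0.32, adjusted p = 0.103).

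Uqcrb, a small subunit at the ubiquinone site of complex III, had 124, 94.2 and 115 CPM in Gh TRAP, against 47.2, 44.5, 47.4 and 44.3 CPM in Gh input. The groups did not overlap (log2 fold change 1.08, SE 0.19, adjusted p = 1.9e-05). Sdhc, a membrane anchor of complex II, had 102, 104 and 116 CPM in Gh TRAP, against 60.4, 74.6, 68.6 and 63.0 CPM in Gh input (log2 fold change 0.49, SE 0.20, adjusted p = 0.0439). Atp5j, the F6 coupling factor of the ATP synthase stalk, had 241, 197 and 200 CPM in Gh TRAP, against 107, 121, 125 and 120 CPM in Gh input (log2 fold change 0.65, SE 0.15, adjusted p = 0.000657). Atp5l, a membrane subunit, gave a log2 fold change of 0.65 (SE 0.17, adjusted p = 0.00286). Cycs, Cyc1, Sdha and Sdhb were not called, with log2 fold changes of 0.06, -0.11, -0.13 and 0.04. When Sh TRAP replicates 2 and 3 were left out of the fit over both fractions, 26 members were called higher, against 26.5% of genes, and the medians were 0.32 for the members and 0.01 for all genes. No Gh library was left out, so these values moved only through the shared filter, scaling and spread.

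Over the mean of the 4 groups, 30 members were higher in TRAP, against 32.3% of all genes, and Atp5g1 and Atp5s were lower, against 37.4% of all genes. With Sh TRAP replicates 2 and 3 left out, 37 were higher, against 36.8% of all genes, and none was lower. Other measures moved with these differences. Members under 1000 nt of exon, 27 of the 45, had a median log2 fold change of 0.36 in Gh. The 18 longer members had 0.10. All genes under 1000 nt had 0.21 and longer genes had -0.08. Genes under 500 nt had -0.28 and the other genes under 1000 nt had 0.25, so the values did not rise steadily as length fell. Markers of meningeal fibroblasts were all enriched in TRAP (7 of 7, median log2 fold change 5.24), summing to 2304 to 2428 CPM in Gh TRAP and 82.8 to 112 CPM in Gh input, and 4 of 5 endothelial and 3 of 7 mural markers were higher as well. All 5 oligodendrocyte markers were lower in TRAP (median -1.41) and so were 4 of 5 interneuron markers (median -1.30), and, of 4 markers of layer 5, the labelled home of the S100a10 neurons, 1 was higher and 2 were lower. The part of these cells in the members' enrichment was not tested.

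**Figure D1:**
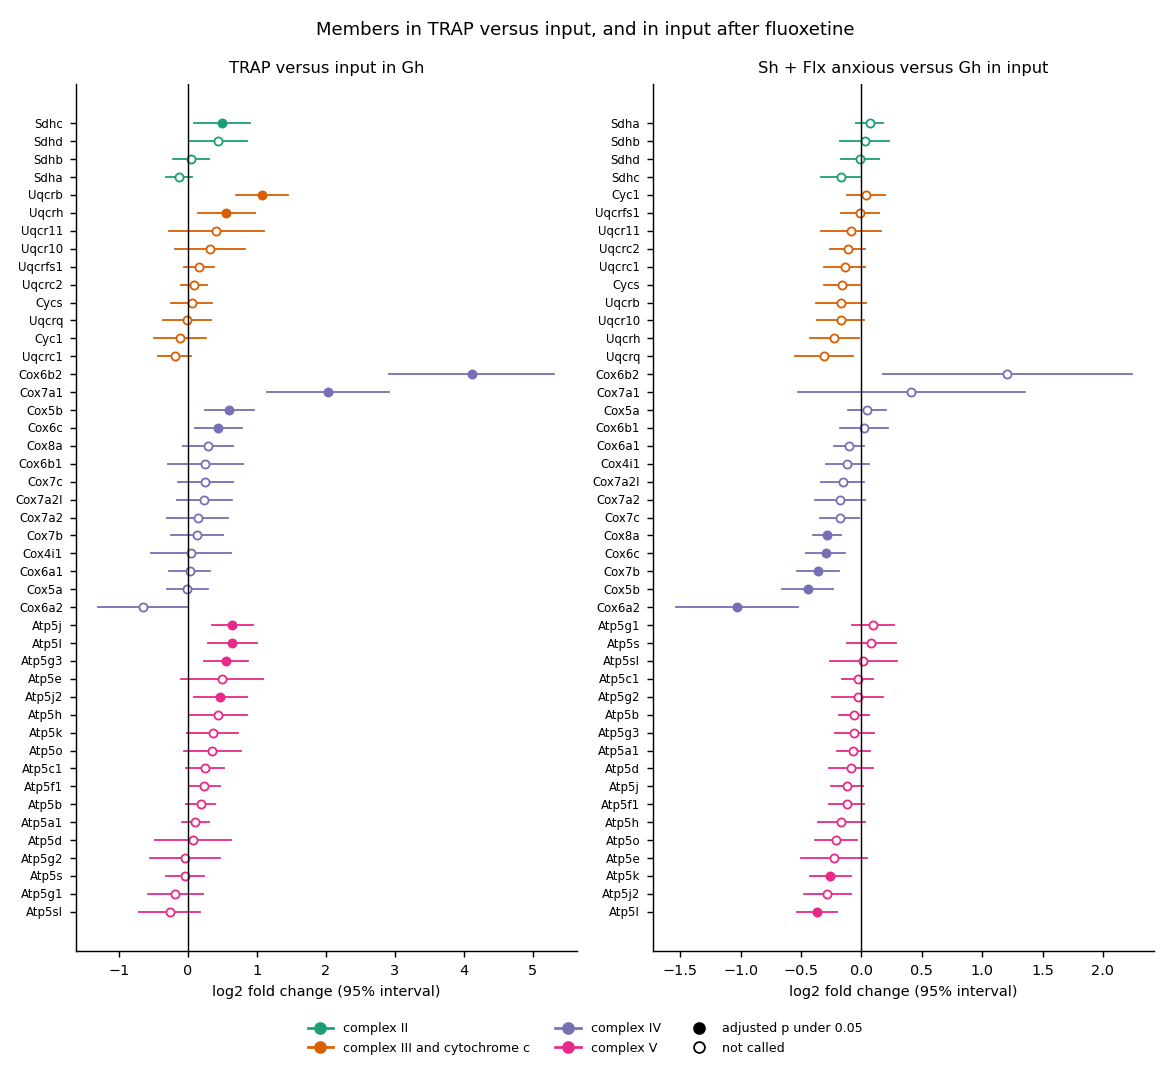
Log2 fold change of each member (rows, grouped by complex), with 95% intervals, for TRAP versus input in Gh mice (left) and for Sh + Flx anxious versus Gh in input (right). Filled points are members past an adjusted p of 0.05, and Cox6b2 (4.12) and Cox7a1 (2.04) lie far to the right of the other members in the left panel.

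The second comparison asked how single housing changed the chain. In TRAP mRNA, 43 of the 45 members had a negative log2 fold change in Sh versus Gh, with a median of -0.47, against 0.02 for all genes. No member was called, and 0.0% of 16754 genes were called in this comparison by edgeR, although 14 members and 2634 genes had an unadjusted p under 0.05. DESeq2 called 2 members. Its share over all genes is not given here, so that count is not read as a result about the members. The members with the smallest p were Cox5b of complex IV (log2 fold change -0.96, SE 0.20, adjusted p = 0.206), Cycs (-0.69, SE 0.18, adjusted p = 0.206), Cox5a (-0.55, SE 0.18, adjusted p = 0.212), Atp5g1 (-0.72, SE 0.25, adjusted p = 0.221) and Atp5j2 (-0.65, SE 0.23, adjusted p = 0.224). In 10 members every Sh library lay below every Gh library, against 6.88% of all genes. Atp5l, Cox8a, Uqcrfs1, Uqcrq and Sdhd had log2 fold changes of -0.52, -0.51, -0.32, -0.46 and -0.38. Sdhd turned to 0.04 without Sh TRAP replicates 2 and 3. Sdha was 1 of the 2 members with a positive value (0.21, SE 0.13).

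The size of this difference depended on the outlying Sh libraries. Summed over the 45 members, CPM scaled over both fractions was 5960, 4369, 3818 and 5966 in Sh TRAP, against 6263, 6033 and 6269 in Gh TRAP. Replicates 1 and 4 of Sh thus lay just below the Gh libraries and replicates 2 and 3 far below them. Without those 2, the median log2 fold change of the members was -0.07, with 11 positive and 34 negative, and Cox5b was still the member furthest down (-0.63, SE 0.14, adjusted p = 0.104). In complex II the 4 genes summed to 625, 594, 569 and 639 CPM in Sh TRAP, against 586, 626 and 590 CPM in Gh TRAP, so the groups overlapped there. In complex IV the sums were 1196, 700, 481 and 1216 CPM in Sh TRAP, against 1302, 1216 and 1305 CPM in Gh TRAP.

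**Figure D2:**
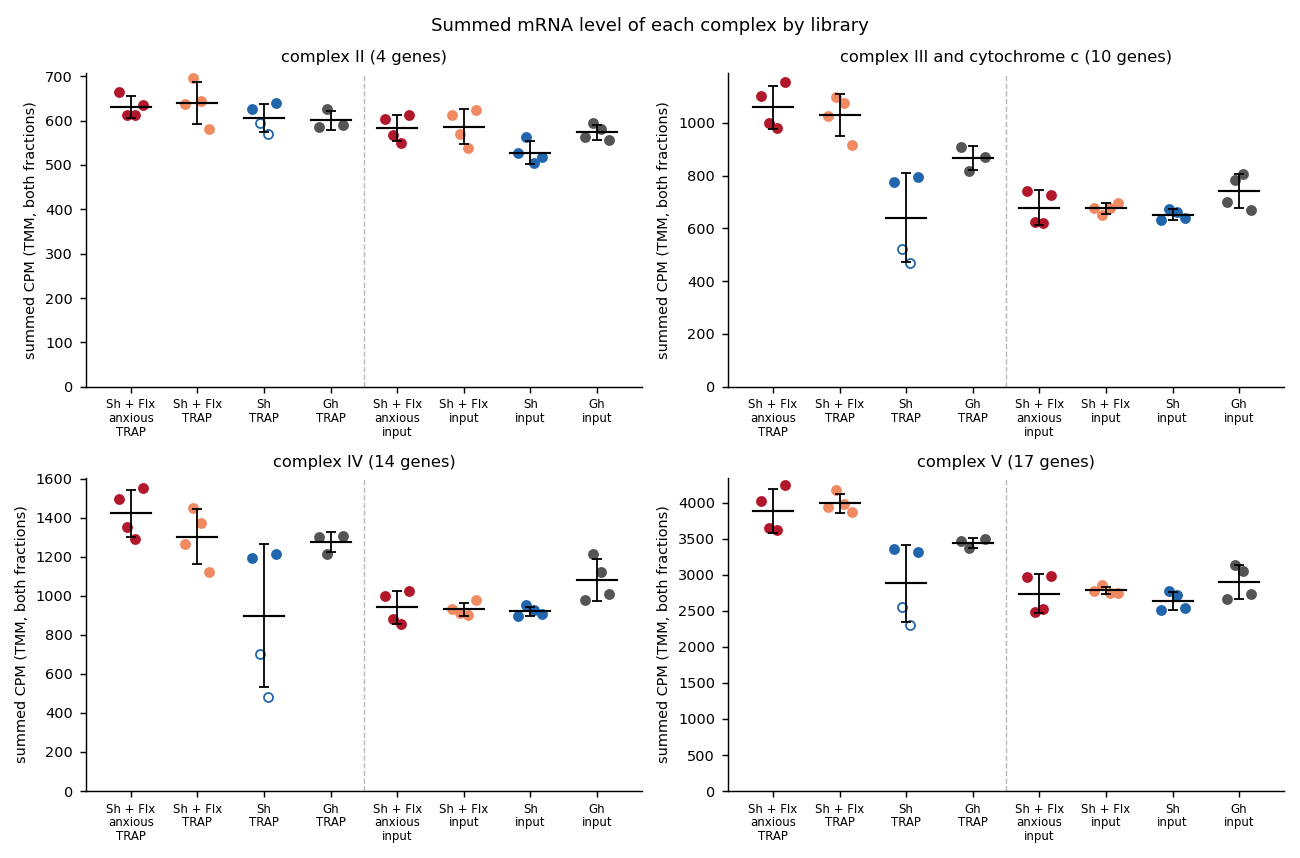
Summed level of the genes of each complex (CPM scaled over both fractions) in every library, by group, in TRAP and in input. Open circles are Sh TRAP replicates 2 and 3 and bars are means with SD. Sh TRAP averaged 5028 CPM over all members, against 6188 CPM in Gh TRAP, and the open circles mark its 2 lowest libraries.

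Transcript length moved with this difference. All genes under 1000 nt of exon had a median log2 fold change of -0.30 in Sh versus Gh TRAP, and longer genes had 0.03. Genes under 500 nt had 0.04, and the other genes under 1000 nt had -0.33. Without Sh TRAP replicates 2 and 3, all genes under 1000 nt had -0.03. Members under 1000 nt had a median of -0.52 and longer members -0.30, which became -0.07 and -0.08 without those libraries. Genes under 1000 nt took 1.80% and 1.23% of counts in Sh TRAP replicates 2 and 3 and 3.71% and 3.72% in replicates 1 and 4, against 3.22% to 3.57% in Gh TRAP libraries, so the remaining Sh libraries lay above Gh. The cytosolic ribosomal proteins, another set of short transcripts, had a median of -0.42, which became 0.03 without the 2 libraries. Markers of other cell types differed too, although none was called. Summed astrocyte markers were 2636 to 3488 CPM in Sh TRAP, against 1942 to 2090 CPM in Gh TRAP, oligodendrocyte markers 804 to 1222 CPM against 746 to 763 CPM, and microglial markers 24.97 to 35.2 CPM against 43.2 to 49.7 CPM, each without overlap. Meningeal fibroblast markers summed to 3219 and 3079 CPM in Sh TRAP replicates 1 and 4 and to 1014 and 1124 CPM in replicates 2 and 3, against 2304 to 2428 CPM in Gh TRAP. What these shifts share with the members' change was not tested.

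**Figure D3:**
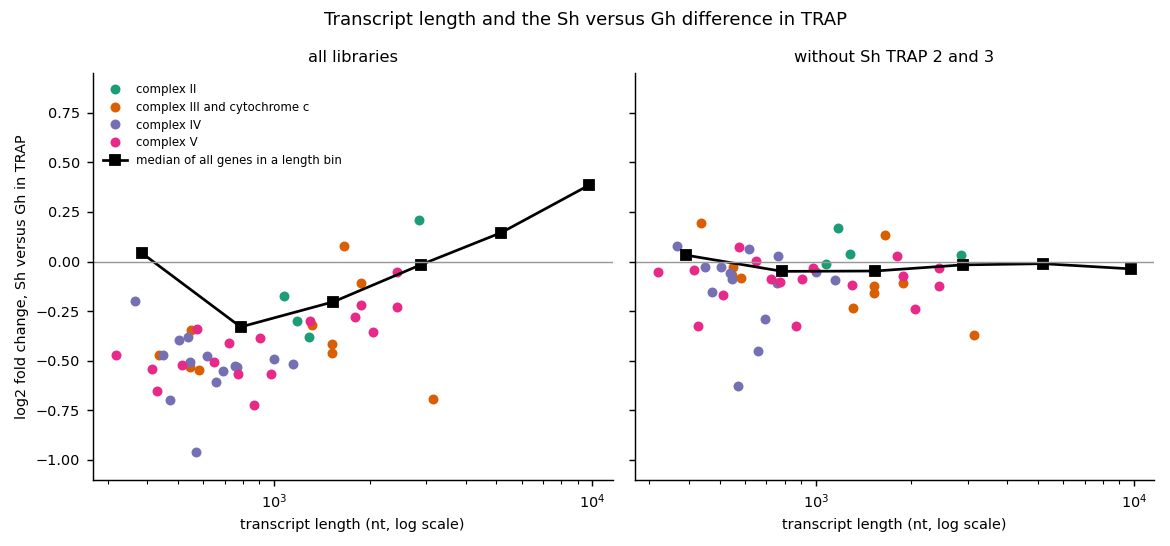
Log2 fold change of each member in Sh versus Gh TRAP against its exon length (log axis), with all libraries and without Sh TRAP replicates 2 and 3. Squares are medians of all genes in bins of length, which ran between -0.33 and 0.39 with all libraries.

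In input, the same comparison of Sh with Gh called no member, against 0.0829% of 15690 genes, while 21 members and 1765 genes had an unadjusted p under 0.05. DESeq2 called 5 members, again without its share over all genes to set beside that count. The differences of Sh from Gh in input were small and mostly of one sign. Summed over the 45 members, CPM scaled over both fractions was 4570.5, 4963.5, 4811.4 and 4598.9 in Sh input. Gh input had 4904.6, 5736.4, 5565.3 and 4967.5, so the groups overlapped and Gh replicates 2 and 3 stood highest. Of the 45 members 42 were negative, with a median log2 fold change of -0.17, against -0.01 for all genes, and 10 lay below Gh without overlap, against 3.11% of all genes. Cox8a, the smallest-p member, had 107, 104, 108 and 101 CPM in Sh input, against 124, 132, 126 and 122 CPM in Gh input. The log2 fold change was -0.26 (SE 0.06, adjusted p = 0.071). Cox7b (-0.34, SE 0.08), Cox5b (-0.41, SE 0.10) and Cycs (-0.27, SE 0.07) had adjusted p values of 0.123, 0.123 and 0.161. The epsilon and e subunits of complex V, Atp5e and Atp5k, gave -0.33 and -0.27, Atp5a1 gave -0.16, Uqcrq and Uqcrh gave -0.28 and -0.23, and Sdhb and Sdha gave -0.28 and -0.12, none of them called. All genes under 1000 nt had a median of -0.13 here, and members under and over 1000 nt had -0.20 and -0.12. The change of Sh versus Gh in TRAP minus that in input was not called for any member, against 0.0235% of 17015 genes, although 5 members and 2190 genes had an unadjusted p under 0.05.

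The third comparison set fluoxetine-treated mice against Sh in TRAP mRNA. In Sh + Flx versus Sh TRAP, 10 of the 45 members were higher and none was lower, in a comparison that called 2.65% of genes higher. They were Cycs and Uqcrfs1 of complex III with cytochrome c, Cox5a and Cox5b of complex IV, Sdhb of complex II, and Atp5b, Atp5c1, Atp5f1, Atp5g1 and Atp5g3 of complex V. The median log2 fold change was 0.54 over the members and -0.02 over all genes. In 20 members every Sh + Flx library lay above every Sh library, against 7.73% of all genes. By complex, all 17 members of complex V were positive (0.15 to 1.02, 5 called), as were 13 of 14 in complex IV (-0.11 to 1.30, 2 called), 9 of 10 in complex III with cytochrome c (-0.03 to 1.05, 2 called) and 3 of 4 in complex II (-0.20 to 0.51, 1 called).

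Cycs, which encodes somatic cytochrome c, had the smallest p. It had 344, 372, 400 and 330 CPM in Sh + Flx TRAP, against 216, 132, 129 and 220 CPM in Sh TRAP. All Sh + Flx libraries thus lay above all Sh libraries, and the lowest Sh libraries were replicates 2 and 3. The log2 fold change was 1.05 (SE 0.17, adjusted p = 0.0076), and 0.73 (SE 0.12, adjusted p = 0.00536) without replicates 2 and 3. Gh TRAP libraries had 320, 264 and 261 CPM. In input, Cycs had 207, 192, 217 and 220 CPM in Sh + Flx, against 183, 211, 199 and 192 CPM in Sh (log2 fold change 0.09, SE 0.07, adjusted p = 0.695). RefSeq lists 3 pseudogenes named after Cycs, so reads from near-identical copies could have been split or shared in the counting.

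Uqcrfs1, the Rieske iron-sulfur protein of complex III, was also higher. It had 122, 112, 99.2 and 107 CPM in Sh + Flx TRAP, against 72.5, 63.1, 73.6 and 81.7 CPM in Sh TRAP. The log2 fold change was 0.59 (SE 0.12, adjusted p = 0.0159), and 0.51 (SE 0.12, adjusted p = 0.0356) without replicates 2 and 3. Gh TRAP libraries lay between the groups, at 92.1, 91.7 and 88.6 CPM. The library values of Uqcrfs1 were chosen for display after they had been seen.

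Cox5b, a zinc-binding subunit of complex IV, had 87.1, 102, 85.5 and 77.0 CPM in Sh + Flx TRAP, against 60.4, 39.9, 29.4 and 58.5 CPM in Sh TRAP. The log2 fold change was 0.90 (SE 0.19, adjusted p = 0.0161), and 0.56 (SE 0.14, adjusted p = 0.0374) without replicates 2 and 3. Gh TRAP had 100, 86.6 and 89.0 CPM, so Sh alone was low. Cox5a, its partner subunit, had 90.9, 92.0, 78.6 and 77.8 CPM in Sh + Flx TRAP, against 64.5, 51.5, 37.5 and 68.6 CPM in Sh TRAP (log2 fold change 0.61, SE 0.17, adjusted p = 0.0399), and it was not called without the 2 libraries. Cox7a1 had the largest fold in complex IV (log2 fold change 1.30, SE 0.39) and was not called (adjusted p = 0.0528).

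Atp5g1, one of the genes for the c subunit of the proton-driven rotor of complex V, had 45.5, 47.7, 58.5 and 44.9 CPM in Sh + Flx TRAP, against 32.2, 21.5, 11.6 and 31.8 CPM in Sh TRAP. The log2 fold change was 1.02 (SE 0.23, adjusted p = 0.0227), and 0.61 (SE 0.15, adjusted p = 0.0374) without replicates 2 and 3. Atp5g3 was also higher (0.73, SE 0.18, adjusted p = 0.0285), and Atp5g2 was not called (0.15, SE 0.30, adjusted p = 0.777). Atp5c1, the gamma subunit of the central stalk, gave 0.60 (SE 0.16, adjusted p = 0.0395), Atp5f1, of the outer stalk, gave 0.47 (SE 0.13, adjusted p = 0.0459), and Atp5b gave 0.43 (SE 0.12, adjusted p = 0.0407). Atp5g3, Atp5c1, Atp5f1 and Atp5b were not called without replicates 2 and 3. Atp5a1, the alpha subunit beside Atp5b in the catalytic head, had 810, 763, 668 and 751 CPM in Sh + Flx TRAP, against 629, 595, 651 and 651 CPM in Sh TRAP, and was not called (log2 fold change 0.24, SE 0.11, adjusted p = 0.174).

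In complex II, Sdhb had 57.3, 54.8, 52.7 and 51.6 CPM in Sh + Flx TRAP, against 42.1, 35.2, 31.4 and 43.3 CPM in Sh TRAP (log2 fold change 0.51, SE 0.13, adjusted p = 0.0358). It was not called without replicates 2 and 3 (0.34, SE 0.12, adjusted p = 0.154). Its catalytic partner Sdha had 387, 394, 355 and 371 CPM in Sh + Flx TRAP, against 382, 462, 503 and 385 CPM in Sh TRAP (log2 fold change -0.20, SE 0.12, adjusted p = 0.301). Sdhc (0.51, SE 0.23, adjusted p = 0.175) and Sdhd (0.46, SE 0.25, adjusted p = 0.241) were not called.

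**Figure D4:**
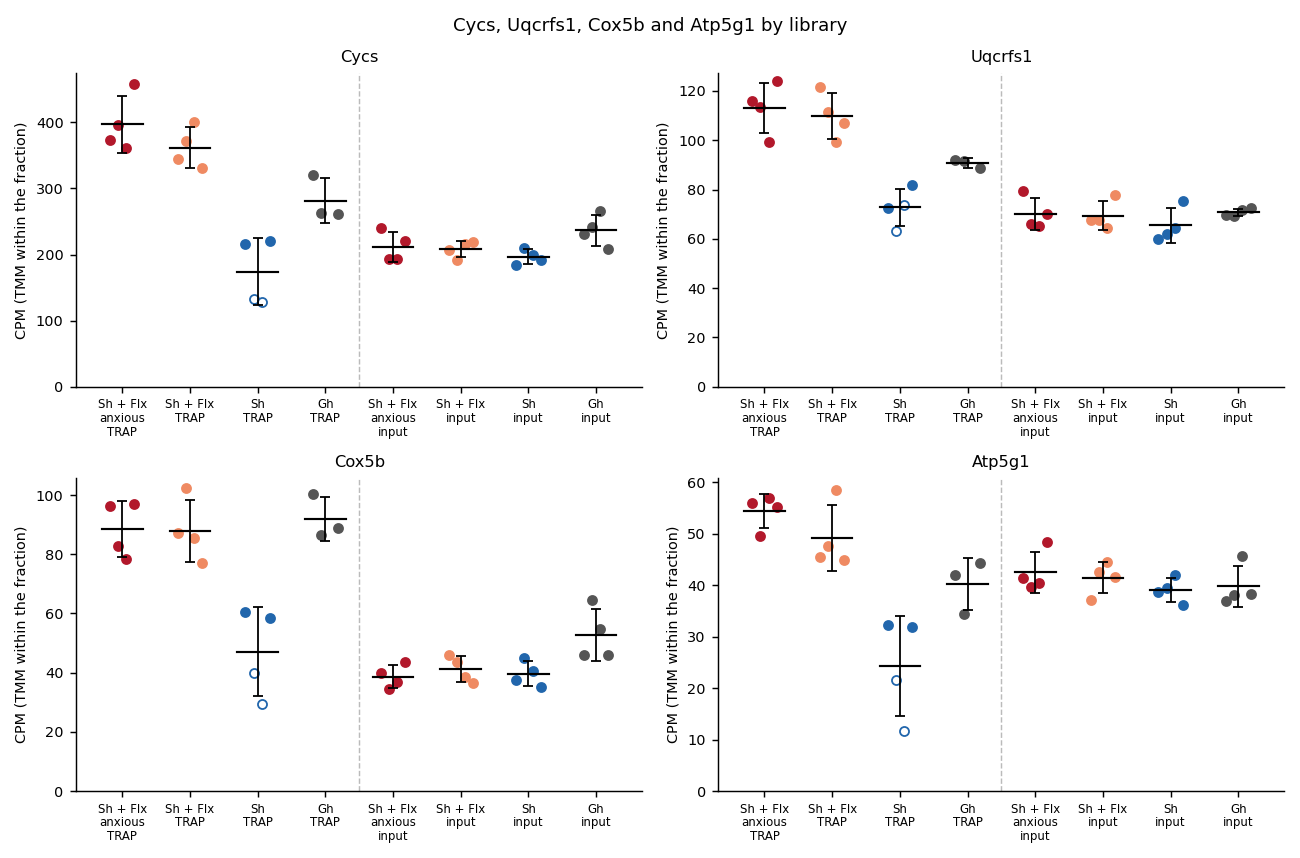
CPM of Cycs, Uqcrfs1, Cox5b and Atp5g1 in each library, by group, in TRAP and input. Open circles are Sh TRAP replicates 2 and 3 and bars are means with SD. Cycs averaged 397, 362, 174 and 282 CPM in Sh + Flx anxious, Sh + Flx, Sh and Gh TRAP, and Sh lay below the others for all 4 genes in TRAP.

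Anxious mice gave a similar list. In Sh + Flx anxious versus Sh TRAP, 17 members were higher and none was lower, in a comparison that called 4.35% of genes higher. The median was 0.66 for the members and -0.01 for all genes (log2 fold change). Of the 10 members called in Sh + Flx, 9 were among these 17, and Atp5b was not. The comparisons share the same Sh libraries. The further members were Uqcrq of complex III, Cox6a1, Cox6b1, Cox7a1 and Cox7b of complex IV, and Atp5d, Atp5j2 and Atp5o of complex V. Cycs had 374, 395, 361 and 458 CPM in Sh + Flx anxious TRAP, against the Sh values above, a log2 fold change of 1.19 (SE 0.17, adjusted p = 0.0022). Atp5g1 had 55.9, 49.6, 56.9 and 55.1 CPM (1.16, SE 0.23, adjusted p = 0.00837). Cox5a had 110, 95.7, 91.9 and 113 CPM (0.89, SE 0.17, adjusted p = 0.007). Uqcrq, of complex III, had 25.3, 20.5, 20.2 and 27.7 CPM in Sh + Flx anxious TRAP, against 16.2, 10.1, 9.47 and 15.5 CPM in Sh TRAP (0.87, SE 0.20, adjusted p = 0.0133). All 4 genes were separated from Sh without overlap. In 24 of the 45 members every Sh + Flx anxious library lay above every Sh library, against 9.38% of all genes. In 1 member, Sdha, every library lay below, against 8.65% of all genes. Uqcrq lies opposite Gdf9, and since the library kit did not mark strand, reads of the pair could not be told apart.

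Cox7a1 had 7.17, 6.39, 6.41 and 4.63 CPM in Sh + Flx anxious TRAP, against 2.90, 0.517, 2.85 and 2.53 CPM in Sh TRAP (log2 fold change 1.45, SE 0.39, adjusted p = 0.0268). This was the largest fold among the members called in this comparison. Sdhb had 63.9, 58.6, 60.5 and 56.5 CPM in Sh + Flx anxious TRAP (0.66, SE 0.13, adjusted p = 0.00889). Sdha had 381, 338, 344 and 369 CPM in Sh + Flx anxious TRAP, below every Sh library, and was not called (-0.28, SE 0.12, adjusted p = 0.149).

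By complex, the members called higher in Sh + Flx anxious numbered 7 of 17 in complex V, where all were positive (0.13 to 1.16), 6 of 14 in complex IV (-0.10 to 1.45), 3 of 10 in complex III with cytochrome c (-0.22 to 1.19) and 1 of 4 in complex II (-0.28 to 0.66). Atp5o, the oligomycin-sensitivity subunit that joins the outer stalk to the head, gave 0.92 (SE 0.24, adjusted p = 0.0236), and Atp5j2, a small membrane subunit, gave 0.86 (SE 0.22, adjusted p = 0.0211). Cox6a1, the general isoform of subunit VIa, gave 0.65 (SE 0.18, adjusted p = 0.0268), and Cox6b1, the general isoform of subunit VIb, gave 1.02 (SE 0.32, adjusted p = 0.0492). Cyc1, the cytochrome c1 of complex III, had 109, 89.8, 91.4 and 81.4 CPM in Sh + Flx anxious TRAP and 89.0, 91.2, 97.3 and 74.1 CPM in Sh + Flx TRAP, against 72.6, 62.1, 28.3 and 69.7 CPM in Sh TRAP. Both drug groups lay above Sh without overlap, yet Cyc1 was not called (0.67, SE 0.22, adjusted p = 0.0586, and 0.60, SE 0.22, adjusted p = 0.0995). Uqcrh was not called in Sh + Flx (0.69, SE 0.23, adjusted p = 0.0742), nor was Sdhc in Sh + Flx anxious (0.59, SE 0.24, adjusted p = 0.109).

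The isoform genes of complex IV gave log2 fold changes of different sizes. Cox6b2 gave -0.10 (SE 0.49) in Sh + Flx anxious and -0.11 (SE 0.49) in Sh + Flx versus Sh TRAP, against 1.02 and 0.66 for Cox6b1, and the difference between isoforms was not tested. Cox6a2 gave 0.94 (SE 0.39, adjusted p = 0.123) and 0.64 (SE 0.39, adjusted p = 0.295). Cox4i1, the general isoform of subunit IV, gave 0.68 (SE 0.33, adjusted p = 0.188) and 0.41 (SE 0.33, adjusted p = 0.449). Cox7a2, the liver-type isoform of subunit VIIa, gave 0.65 (SE 0.25, adjusted p = 0.0927) and 0.46 (SE 0.25, adjusted p = 0.235), and Cox7a2l, which helps join complexes III and IV into supercomplexes, gave 0.32 (SE 0.22, adjusted p = 0.363) and 0.53 (SE 0.22, adjusted p = 0.144). Cox4i1 and Atp5g2 turned to -0.16 and -0.36 in Sh + Flx, and Cox7a2l to -0.11 in Sh + Flx anxious, without Sh TRAP replicates 2 and 3, and none of them was called. Cox4i2, Cox7b2, Cox8b and Cox8c had at most 61 reads in any library and were not described further.

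Without Sh TRAP replicates 2 and 3, 4 members were called higher in Sh + Flx versus Sh (Cycs, Uqcrfs1, Cox5b and Atp5g1), against 1.16% of genes, and the median of the members was 0.21, with 38 of 45 positive. In Sh + Flx anxious versus Sh, 6 were called higher (the same 4 with Cox5a and Sdhb), against 2.64% of genes, and the median was 0.25, with 41 of 45 positive. Cycs then gave 0.86 (SE 0.12, adjusted p = 0.00132). The remaining Sh TRAP libraries, replicates 1 and 4, were themselves close to each other (mean chi-square 2.17). They also stood apart from the drug groups. Reads outside genes made up 25.2% to 33.2% in Sh + Flx anxious TRAP and 30.0% to 35.8% in Sh + Flx TRAP, against 38.8% and 39.0% in these Sh libraries. Malat1 had 3106 to 5383 CPM in Sh + Flx anxious TRAP and 4295 to 4559 CPM in Sh + Flx TRAP, against 6321 and 6466 CPM. Gh TRAP libraries had 34.7% to 39.8% of reads outside genes and 5779 to 8117 CPM of Malat1. The remaining Sh libraries thus lay within the Gh range on both measures. The part of these differences in the calls was not tested. When Sh TRAP replicates 1 and 4 were summed and counted as 1 library, no member was called in either comparison, with adjusted p = 0.184 for Cycs in Sh + Flx and 0.0543 in Sh + Flx anxious. When replicates 1 and 4, and 2 and 3, were summed in every group, no gene was called in either comparison. Labels do not say that these replicates came from the same animals.

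**Figure D5:**
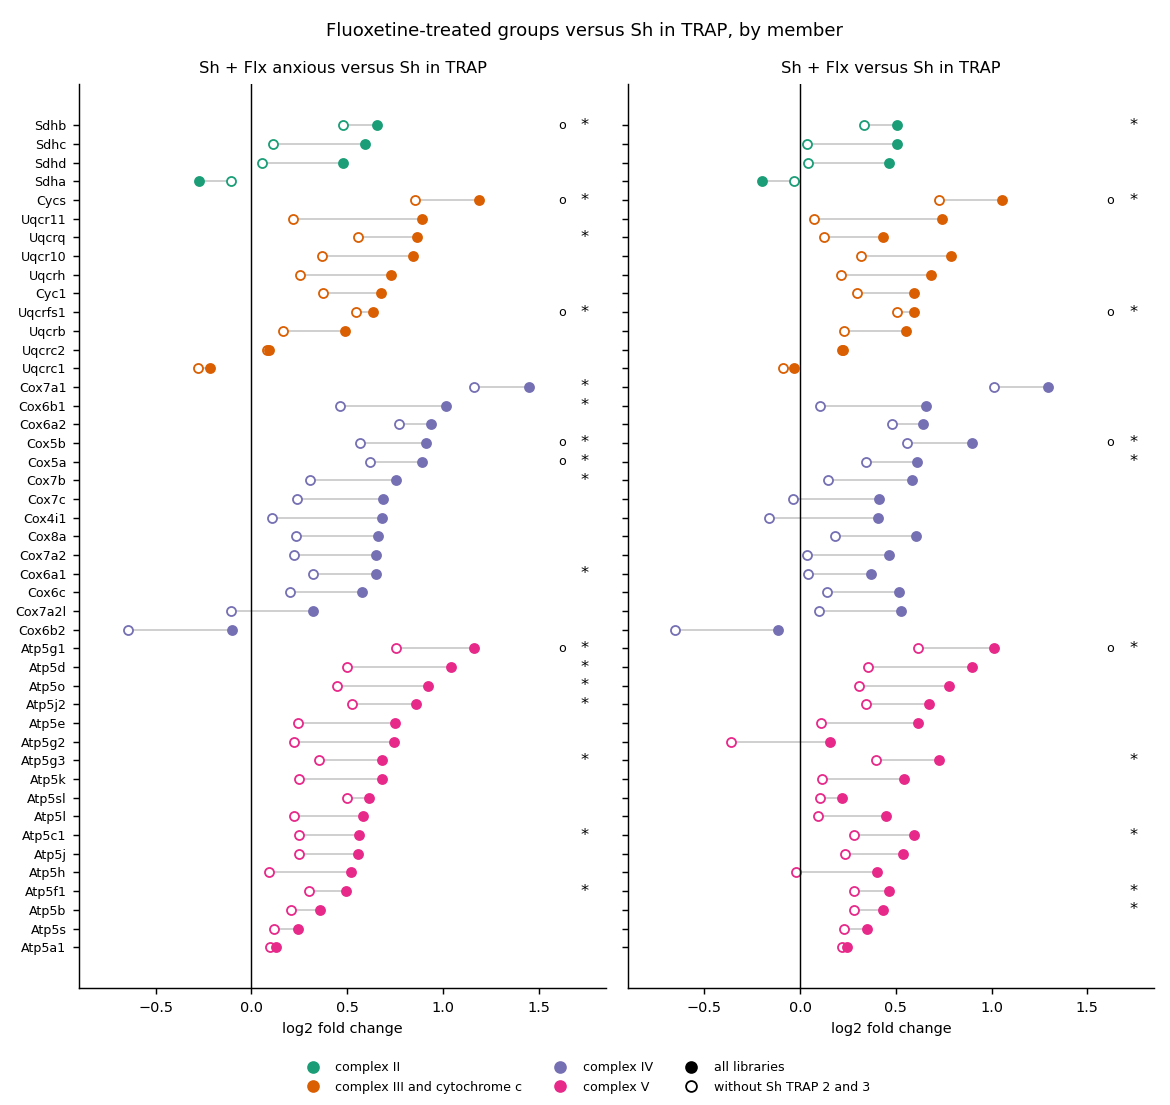
Log2 fold change of each member in TRAP for Sh + Flx anxious versus Sh (left) and for Sh + Flx versus Sh (right). Filled points use all libraries and open points leave out Sh TRAP replicates 2 and 3. A star marks a member called with all libraries (17 and 10) and a small o one called without the 2 libraries (6 and 4).

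Length moved with these comparisons too. Genes under 1000 nt had a median log2 fold change of 0.23 in Sh + Flx and 0.30 in Sh + Flx anxious versus Sh TRAP. These medians hid opposite signs. Genes under 500 nt had -0.33 and -0.26, and the other genes under 1000 nt had 0.28 and 0.34. Members under 1000 nt had 0.61 and 0.73, while longer members had 0.46 and 0.53. The members were not split at 500 nt. Without Sh TRAP replicates 2 and 3, genes under 1000 nt had -0.01 and 0.05, members under 1000 nt had 0.18 and 0.25, and longer members had 0.22 and 0.23. The oligodendrocyte markers also moved, with all 5 negative in both comparisons (medians -0.71 and -0.77) and 1 and 2 of them called lower. Their summed level was 419 to 672 CPM in Sh + Flx anxious, 512 to 751 CPM in Sh + Flx and 804 to 1222 CPM in Sh TRAP. With Sh TRAP replicates 2 and 3 left out, the medians were -0.43 in Sh + Flx and -0.56 in Sh + Flx anxious, with 0 and 1 called lower. Astrocyte markers summed to 1620 to 2654 CPM in Sh + Flx anxious and 1656 to 2362 CPM in Sh + Flx, against 2636 to 3488 CPM in Sh TRAP, and only Sh + Flx was separated from Sh without overlap. Meningeal fibroblast markers summed to 1434 to 2273 CPM in Sh + Flx anxious and 1573 to 2078 CPM in Sh + Flx, against 3219 and 3079 CPM in Sh TRAP replicates 1 and 4. Sh TRAP replicates 2 and 3 had 1014 and 1124 CPM, below both drug groups. Without replicates 2 and 3, 2 of these 7 markers were called lower in each comparison and 2 were called higher in Sh + Flx anxious. Mural markers summed to 54.8 to 80.9 CPM in Sh + Flx anxious and 52.3 to 83.3 CPM in Sh + Flx, against 102 and 105 CPM in Sh TRAP replicates 1 and 4. Sh TRAP replicates 2 and 3 had 80.0 and 76.2 CPM, within the ranges of the drug groups. The part of these cells in the members' change was not tested.

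Fluoxetine-treated mice were also set against Gh, from which they differ in housing as well as drug. No member was called in Sh + Flx versus Gh TRAP, against 0.00597% of genes, or in Sh + Flx anxious versus Gh TRAP, against 0.0716% of genes, with medians of 0.09 and 0.21 over the members. By unadjusted p under 0.05, 2 and 4 of the 45 members passed, and 1029 and 1282 of the 16754 genes did. Cycs gave 0.36 (SE 0.19, adjusted p = 0.858) and 0.50 (SE 0.19, adjusted p = 0.511), and Sdhb gave 0.33 (SE 0.15, adjusted p = 0.772) and 0.48 (SE 0.15, adjusted p = 0.339). Without Sh TRAP replicates 2 and 3, Sdhb (0.47, SE 0.11, adjusted p = 0.0302), Cycs (0.49, SE 0.11, adjusted p = 0.02) and Cox7a1 (1.24, SE 0.30, adjusted p = 0.0372) were called higher in Sh + Flx anxious, against 1.31% of genes. This comparison holds no Sh library, so leaving them out acted only through the shared filter, scaling and spread. The log2 fold changes barely moved while the SEs fell. The spread then rested in part on Sh TRAP replicates 1 and 4, which were close to each other (mean chi-square 2.17). These calls are therefore not read as a rise over Gh. Uqcrfs1 and Sdhc gave 0.32 and 0.29 in Sh + Flx anxious and 0.28 and 0.21 in Sh + Flx, and Cox7a1 gave 1.25 and 1.09, none called with all libraries. Cox6b2 gave -0.58 and -0.59 (SE 0.53 each) and was not called. Between Sh + Flx anxious and Sh + Flx in TRAP, 0.0% of genes and no member were called by edgeR, and 724 genes and 1 member (Uqcrq, 0.43, SE 0.19) had an unadjusted p under 0.05. DESeq2 called no member there either. Atp5g2 (0.59, SE 0.30) and Cox5a (0.28, SE 0.17) had the smallest p in complexes V and IV, and Sdhb gave 0.15 (SE 0.13).

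In input, the drug groups were also set against Sh. Sdha was the only member called higher in Sh + Flx versus Sh, against 1.82% of genes, and in Sh + Flx anxious versus Sh, against 3.98% of genes. This 1 call among the 45 members lies near or below those shares, so it is not read as a change of the members. Sdha had 385, 367, 357 and 391 CPM in Sh + Flx anxious and 398, 359, 350 and 409 CPM in Sh + Flx, against 337, 352, 309 and 323 CPM in Sh input. The log2 fold changes were 0.18 (SE 0.05, adjusted p = 0.0379) and 0.20 (SE 0.05, adjusted p = 0.0471). Both calls depended on single libraries. In Sh + Flx the call was lost without Sh input replicate 1, 3 or 4 or Sh + Flx input replicate 1 or 4 (adjusted p = 0.0726 to 0.209). In Sh + Flx anxious it was lost without Sh input replicate 1, 3 or 4 or Sh + Flx anxious input replicate 1 or 4 (adjusted p = 0.0579 to 0.152). With replicates 1 and 4, and 2 and 3, summed in every group, Sdha was called in neither (adjusted p = 0.319 in Sh + Flx anxious and 0.46 in Sh + Flx). Gh input had 368, 357, 357 and 350 CPM of Sdha. Sdhb gave 0.30 (SE 0.10, adjusted p = 0.0708) and 0.18 (SE 0.10, adjusted p = 0.484), Cox5a gave 0.18 in both, Cyc1 gave 0.10 in both, and Atp5l gave -0.21 and -0.15, none called. Cycs gave 0.11 and 0.09. The medians over the members were 0.03 and 0.02.

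The drug groups differ from Gh in housing as well as drug, and in input some members were lower in them than in Gh. Sh input, without drug, was lower than Gh input too (median log2 fold change -0.17, 42 of 45 members negative, none called), although the summed levels of the libraries overlapped. There Cox5b gave -0.41 and Cox7b gave -0.34. In Sh + Flx versus Gh, 5 were lower (Cox5b, Cox7b, Cox7c, Cox8a and Atp5l), against 2.21% of genes, and in Sh + Flx anxious versus Gh, 7 were lower (Cox5b, Cox6a2, Cox6c, Cox7b, Cox8a, Atp5k and Atp5l), against 5.27% of genes. The lists shared 4 members and the comparisons share the Gh libraries. The medians over the members were -0.12 in both. Cox8a had 107, 101, 97.0 and 108 CPM in Sh + Flx anxious and 97.6, 107, 99.2 and 100 CPM in Sh + Flx, against 124, 132, 126 and 122 CPM in Gh input. The log2 fold changes were -0.29 (SE 0.06, adjusted p = 0.00074) and -0.32 (SE 0.06, adjusted p = 0.000568). The Sh input libraries, without drug, had 101 to 108 CPM of Cox8a.

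Cox5b had 40.0, 34.4, 37.0 and 43.5 CPM in Sh + Flx anxious and 46.1, 43.5, 38.6 and 36.6 CPM in Sh + Flx, against 46.1, 64.5, 54.7 and 45.9 CPM in Gh input. The log2 fold changes were -0.45 (SE 0.10, adjusted p = 0.00406) and -0.36 (SE 0.10, adjusted p = 0.0393). Cox7b had 112, 87.3, 89.9 and 114 CPM in Sh + Flx anxious and 104, 99.3, 101 and 111 CPM in Sh + Flx, against 117, 147, 136 and 118 CPM in Gh input (-0.36, SE 0.08, adjusted p = 0.00451, and -0.31, SE 0.08, adjusted p = 0.0226). In both genes the 2 highest Gh libraries were replicates 2 and 3. Uqcrq (-0.31 and -0.38), Uqcrh (-0.22 and -0.25), Cycs (-0.16 and -0.18) and Atp5j2 (-0.28 and -0.31) were negative in both and not called. Cox6a2 had 1.38, 1.48, 1.28 and 1.62 CPM in Sh + Flx anxious input, against 2.80, 3.64, 3.08 and 2.26 CPM in Gh input, the largest fold of these (-1.03, SE 0.25, adjusted p = 0.00525). This gene overlaps Itgad on the other strand and had 31 to 120 reads per input library. Atp5l had 44.7, 37.1, 41.1 and 44.3 CPM in Sh + Flx anxious and 42.2, 45.6, 45.8 and 41.5 CPM in Sh + Flx, against 50.3, 61.7, 54.5 and 49.8 CPM in Gh input (log2 fold changes -0.37, SE 0.08, adjusted p = 0.00236, and -0.30, SE 0.08, adjusted p = 0.0219). All 5 oligodendrocyte markers were lower in Sh + Flx anxious versus Gh input (median -0.65) and 4 of 5 in Sh + Flx versus Gh. Interneuron markers summed to 1439 to 1463 CPM in Sh + Flx anxious and 1419 to 1516 CPM in Sh + Flx, against 1150 to 1256 CPM in Gh input, without overlap, with 1 of 5 called higher and 1 called lower in each comparison. Meningeal fibroblast markers summed to 45.7 to 63.5 CPM in Sh + Flx anxious and 60.3 to 86.4 CPM in Sh + Flx, against 82.8 to 112 CPM in Gh input. The part of these cells in the members' difference was not tested. Here members under 1000 nt had a median of -0.17 in Sh + Flx anxious versus Gh, against -0.12 for all genes of that length. Sh + Flx anxious and Sh + Flx gave no called member in input, against 0.127% of genes, and no member had an unadjusted p under 0.05.

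Whether the change in TRAP differed from that in input was tested in 1 fit over both fractions. For Sh + Flx versus Sh, 4 members had a called positive difference, TRAP minus input (Cycs, Uqcrfs1, Cox5b and Atp5g1), against 0.864% of genes. For Sh + Flx anxious versus Sh, 11 members had a called positive difference, against 2.14% of genes. Sdha had a called negative one, against 5.17% of genes, with opposite signs in the fractions (-0.28 in TRAP, not called, and 0.18 in input). Cycs gave differences of 0.96 (SE 0.20, adjusted p = 0.0141) and 1.07 (SE 0.20, adjusted p = 0.00404), and Sdha gave -0.40 (SE 0.12, adjusted p = 0.061) and -0.46 (SE 0.12, adjusted p = 0.0209). Without Sh TRAP replicates 2 and 3, Cycs was the 1 member called in Sh + Flx (0.66, SE 0.14, adjusted p = 0.0166), against 0.675% of genes, and Cycs, Atp5g1, Cox5b and Uqcrfs1 were called in Sh + Flx anxious, against 2.12% of genes, while Sdha was no longer called (-0.26, SE 0.10, adjusted p = 0.159), against 0.848% of genes called lower. With Sh TRAP replicates 1 and 4 then summed, no member was called in either.

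Other genes of the pathway were counted from fixed lists. Of all genes, 2.65% were called higher in Sh + Flx and 4.35% in Sh + Flx anxious versus Sh TRAP. Without Sh TRAP replicates 2 and 3 these shares were 1.16% and 2.64%. The shares called lower are not given here, so lower calls are not read as results about the lists. The lists were not counted with Sh TRAP replicates 1 and 4 summed, a setting in which no member of the chain was called. Of the 37 complex I subunits, 4 were higher in Sh + Flx and 10 in Sh + Flx anxious versus Sh TRAP, with medians of 0.46 and 0.61, and without Sh TRAP replicates 2 and 3 these were 0 and 2, with medians of 0.10 and 0.24. Of 29 tested assembly factors of complexes II to V, 3 were higher in each comparison, 1 was lower in Sh + Flx anxious, and medians were 0.17 and 0.26. Leaving out the 2 libraries gave 0 and 3 higher, none lower, and medians of -0.01 and 0.08. Among 16 glycolytic genes, 4 and 6 were higher (medians 0.44 and 0.44), and without the 2 libraries 4 and 5 were higher, with all 16 positive and medians of 0.36 and 0.38. Among 16 citric acid cycle genes, 3 were higher in each and 1 was lower in Sh + Flx anxious, and without the 2 libraries 1 and 3 were higher, with medians of 0.24 in both. Among 12 mitochondrial carriers, 0 and 2 were called higher and all 12 were positive in both comparisons. With the 2 libraries left out none was called and all 12 stayed positive. Of 16 regulators of the chain, 1 and 3 were higher, and 2 were lower in Sh + Flx anxious, and with the 2 libraries left out 0 and 2 were higher and none was lower.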

How the data were processed

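RNA of whole cortex (input) and of EGFP-tagged ribosomes (TRAP) was sequenced in 32 libraries. The authors deposited raw counts per gene, which were used as deposited. Per the labels and the study's methods, reads (75-bp paired, Ovation RNA-Seq V2, not stranded) were mapped to mm10 with TopHat2 2.0.11, and the processing notes also name Cufflinks 2.2.1, edgeR 3.8.6, DESeq2 and GRCm38. The counting step was not given in the sources used here. Rows naming no gene (5 per library, with 25.2% to 58.6% of reads outside genes) were left out, and the authors' tables of group mean FPKM, fold changes and p-values were not used.

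Counts were tested with edgeR 4.0.16 (R 4.3.3; TMM, filterByExpr, quasi-likelihood F test, Benjamini-Hochberg over all genes kept, adjusted p under 0.05) in 3 fits: 15 TRAP libraries (16754 genes), 16 input libraries (15690) and both (17015). The SE is the log2 fold change divided by the square root of F. CPM was TMM-scaled within a fraction unless stated. Exon lengths, positions and promoters came from RefSeq GRCm38.p6. The fitting code was tested on simulated data. Group, housing and replicate came from the labels. The labels do not say that pools shared no animal, so p-values measure only the spread between these libraries, which may be technical. Replicate numbers did not pair libraries (correlations of deviations between same-numbered libraries were -0.14 to 0.12). Alternatives were DESeq2 1.42.0, median-of-ratios scaling, no filter, Gh TRAP 2 and 3 apart, a replicate block, leaving out libraries and, chosen after seeing the data, summed pairs of replicates. Genes named were drawn from, per comparison, those with the smallest p in each complex (2 for complex II, 3 for the others), with the isoform sets, Sdha to Sdhd, Cycs and Cyc1, and the highest and lowest member of each complex per length. Members, lists and tests were chosen with earlier results of these data known.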

Additional observations from a re-analysis of the deposited data

Results flagged for a closer look

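Whether the change in TRAP differed from that in input was tested in the fit over both fractions (edgeR quasi-likelihood test). The change differed for 4 members in Sh + Flx versus Sh, all with a positive difference, against 0.864% of genes called that way. The differences in log2 fold change were 0.9636 for Cycs, 0.9251 for Atp5g1, 0.8398 for Cox5b and 0.5094 for Uqcrfs1. For Sh + Flx anxious versus Sh the change differed for 12 members. Of these, 11 had a positive difference, against 2.14% of genes, and Sdha had a negative one, against 5.17% of genes. The call of Sdha alone is thus no more than the share over all genes. Electron transport members were Cycs (1.067), Uqcrq (0.8853), Uqcrfs1 (0.5262), Cox6a2 (1.505), Cox5b (0.9341), Cox7b (0.763), Cox5a (0.7013) and Sdha (-0.4639). ATP synthase members were Atp5g1 (1.027), Atp5j2 (0.916), Atp5o (0.9126) and Atp5l (0.788). Sdha was the 1 member called with a negative difference, from -0.28 in TRAP and 0.18 in input, while 3 of the 45 members were negative. Without Sh TRAP replicates 2 and 3 these counts were 1 and 4 members, all with a positive difference, against 0.675% and 2.12% of genes. With Sh TRAP replicates 1 and 4 then summed, no member was called in either.

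Among 140 groups of 4 libraries tested for 1 value far from the rest, 2 were past Dixon's limit, where chance flags about 1 in 20. Uqcrq had 12.71 CPM in Sh + Flx input replicate 2, above the other 3 libraries (11.6 to 11.8 CPM). Atp5g1 had 45.74 CPM in Gh input replicate 3, above the other 3 (36.9 to 38.3 CPM).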

How the results depend on the processing

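Of 148 log2 fold changes stated or called for members, 8 changed sign under an alternative, and none of the 8 was called. Without Sh TRAP 2 and 3, and with Sh TRAP 1 and 4 then summed, Sdhd in Sh versus Gh TRAP gave 0.037 and 0.0404, Atp5g2 in Sh + Flx versus Sh TRAP gave -0.362 and -0.351, Cox4i1 there gave -0.162 and -0.178, and Cox7a2l in Sh + Flx anxious versus Sh TRAP gave -0.11 and -0.105. With pairs of replicates summed in every group, Cox6b2 in Sh + Flx anxious versus Sh TRAP gave 0.000324 and Cycs in TRAP versus input gave -0.0101. Leaving out 1 library at a time, Atp5g2 ranged over -0.122 to 0.408 and Cox6b2 over -0.493 to 0.173 in Sh + Flx versus Sh TRAP, Cox6b2 over -0.49 to 0.183 in Sh + Flx anxious versus Sh TRAP, and Cycs over -0.0437 to 0.117 and Sdhb over -0.0187 to 0.0818 in TRAP versus input. With DESeq2 the members called numbered 2 in Sh versus Gh, 16 in Sh + Flx versus Sh and 27 in Sh + Flx anxious versus Sh in TRAP, 5 in Sh versus Gh and 9 in Sh + Flx versus Gh in input, and 8 for the difference of TRAP and input changes in Sh + Flx versus Sh. The shares of all genes that DESeq2 called are not given here, so these counts show only a dependence on the test. With no filter on low counts, 3 were called in Sh versus Gh input. Without Sh TRAP 2 and 3, 4 and 6 members were called in Sh + Flx and Sh + Flx anxious versus Sh TRAP, 3 in Sh + Flx anxious versus Gh TRAP, 26 in TRAP versus input, and 1 and 4 for the differences of changes. With Sh TRAP 1 and 4 also summed, these were 0 and 0, 1, 26, and 0 and 0. With replicates 1 and 4, and 2 and 3, summed in every group, they were 0 and 0 in TRAP versus Sh, 0 and 0 in input versus Sh, 0 and 2 in input versus Gh, 4 in TRAP versus input, and 0 and 0 for the differences. Over the mean of the 4 groups, TRAP versus input called 32. With the replicate block, Sh + Flx versus Sh called 0 in input and 1 for the difference of changes, and the count for no other comparison moved by over 1.5 times. Beyond fewer libraries, the cause of these moves was not tested.

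Leaving out 1 library at a time, the members called ranged over 2 (without Sh + Flx TRAP 1) to 26 (without Sh TRAP 4) in Sh + Flx versus Sh and 7 (without Sh + Flx anxious TRAP 1) to 32 (without Sh TRAP 4) in Sh + Flx anxious versus Sh in TRAP. They ranged over 0 to 1 and 0 to 2 in input versus Sh, 1 to 8 (without Gh input 2 and 1) and 5 to 10 in input versus Gh, and 7 to 12 in TRAP versus input. For the differences of changes they ranged over 1 (without Sh input 2) to 22 (without Sh TRAP 4) and 6 (without Sh input 2) to 29 (without Sh TRAP 1). The shares of all genes called are not set beside these counts, which show only how the calls depended on the libraries. Members with few reads (Cox6b2, Cox7a1 and Cox6a2, down to 5 reads in a library) were the least precise.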
